A study of Mus musculus with 12 samples.

Results

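Translation initiation factors are the proteins that bring the ribosome, the initiator tRNA and the mRNA together at the start codon. Their genes were taken as all probe sets with a single platform symbol that begins with Eif and a digit, leaving out the 4 eIF2 kinases Eif2ak1, Eif2ak2, Eif2ak3 and Eif2ak4, which phosphorylate eIF2 and are not initiation factors. This gave 38 genes on 94 probe sets, of 12335 named genes on 22516 probe sets in all, and each gene was represented by its brightest probe set. The rule uses symbols and brightness and no change between groups. All 38 brightest probe sets passed the filter on dim signals, as did 88 of the 94 probe sets. A further 5 probe sets that carry the name of an initiation factor beside other symbols were not used. The 38 did not include Eif1, Eif2s1, Eif2b3, Eif3g, Eif3j or Eif4g1, so eIF2, eIF2B, eIF3 and eIF4F were covered only in part.

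RNA of the whole pancreas was measured on 12 Affymetrix mouse arrays, 1 per pancreas, in 4 groups of 3. The groups were wild type mice given saline, wild type mice given caerulein, Mist1KO mice given saline and Mist1KO mice given caerulein. Caerulein is an analogue of the hormone cholecystokinin that drives acinar cells to secrete, and repeated high doses cause acute pancreatitis. All mice were males of 2 to 4 months, injected every hour over 4 hours and killed at the end of that time, and the wild type mice were C57BL6. The strain of the Mist1KO mice, the dose of caerulein and the part of the Mist1 gene that was removed are not stated in the labels used here. Mist1, encoded by Bhlha15, is a transcription factor of secretory cells and sets the architecture of the enzyme-producing acinar cells.

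Initiation proceeds in steps. The eIF2 complex carries the initiator tRNA to the small ribosomal subunit, and eIF3 binds that subunit as a scaffold. The cap-binding complex eIF4F, made of eIF4E, eIF4A and eIF4G, recruits and unwinds the mRNA. The loaded subunit scans to the start codon under eIF1, eIF1A and eIF5, and eIF5B then joins the large subunit. Control acts mainly at eIF2, whose exchange factor eIF2B is blocked when eIF2 is phosphorylated during stress, and at eIF4E, which is held by the 4E-binding proteins until mTOR complex 1 phosphorylates them. The acinar cell makes more protein for its size than almost any other cell, and secretagogues such as caerulein are known to act on both control points. The arrays measure mRNA only and show neither protein nor phosphorylation.

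All arrays were on 1 scale, with trimmed means of 151.08 to 151.37 and medians of 70.6 to 90.15. Bhlha15, the targeted gene, had signals of 1601 to 1624.3 in wild type after saline, 729.5 to 838.5 in wild type after caerulein, 89.9 to 106.8 in saline-treated Mist1KO mice and 38.3 to 79.4 in Mist1KO after caerulein, so the labelled genotypes were borne out. Several measures of the arrays moved with the groups. The 50 brightest probe sets held 17.8% of all signal in wild type after saline, 15.4% in wild type after caerulein, 13.4% in saline-treated Mist1KO mice and 9.70% in Mist1KO after caerulein (means, n = 3 each). The mean spike-in signal was 1263, 1074, 914.3 and 446.3 in the same order, and the ratio of 3′ to 5′ Actb signal was 1.53, 1.35, 1.82 and 1.12. The summed signal of 8 acinar markers was 146650.4 to 190520.4, 124593.3 to 171647.4, 108119 to 127935.2 and 61892.2 to 95152.5, and all 8 fell with caerulein in Mist1KO. Of 3 duct markers tested, Krt19 rose with caerulein, with mean signals of 77.8 and 335.0 in the wild type groups and of 56.3 and 852.6 in the Mist1KO groups, and Sox9 and Car2 did not pass the threshold. With caerulein 2 of 6 neutrophil and macrophage markers fell in wild type (Adgre1 and Csf1r) and 3 of 5 fibroblast markers in Mist1KO (Col1a2, Dcn and Lum). Between genotypes, 2 of 4 endothelial markers were lower in Mist1KO after saline (Pecam1 and Kdr). After caerulein 7 of 8 acinar, 2 of 4 islet and 1 of 4 endothelial markers were lower there, and 1 of 3 duct markers was higher. Of 3 lymphocyte markers, 1 fell with caerulein in wild type and 1 was higher in Mist1KO after saline. Over all genes 9.96% fell with caerulein in wild type and 14% in Mist1KO. Between genotypes 6.95% of all genes were lower in Mist1KO after saline and 11.6% after caerulein. The part of these shifts in the changes below was not tested, and in whole tissue fewer cells of a type and less RNA per cell cannot be told apart.

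Caerulein changed 14 of the 38 initiation factor genes in wild type, 10 upward and 4 downward. Those that rose were led by Eif4e, Eif4ebp1, Eif3c, Eif5 and Eif6, and those that fell were Eif2b1, Eif4ebp2, Eif4a2 and Eif2s3x. A gene is said to have risen or fallen where limma's p-value, adjusted over all 15716 probe sets tested, was under 0.05. Of all 9481 genes tested, 8.74% rose and 9.96% fell in this comparison, against 26.3% and 10.5% of the initiation factors. The median change of the 38 genes was 0.17 on the log2 scale, beside -0.16 over all genes. With each array centred on its median, which moved the median of all probe sets by 0.13, the counts were 11 upward and 1 downward, Eif2b1 alone.

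In Mist1KO caerulein also changed 14 of the 38 genes, 10 upward and 4 downward, where 10.2% of all genes rose and 14% fell. The leading rises were those of Eif4ebp1, Eif4e, Eif6, Eif3c and Eif4a1, and the falls were those of Eif2b1, Eif4a2, Eif4ebp2 and Eif2b4. The median change was 0.02, beside -0.14 over all genes. The 2 comparisons share no array. The same 8 genes rose in both (Eif2s2, Eif3c, Eif4a1, Eif4e, Eif4ebp1, Eif4h, Eif5 and Eif6), 80% of the genes that rose in each, and the same 3 fell in both (Eif2b1, Eif4a2 and Eif4ebp2), 75% of those that fell in each. Among all genes, the shared share was 62.4% of those that rose in wild type and 53.3% of those that rose in Mist1KO, and for falls it was 49.9% and 35.5%. Quantile normalization gave 9 upward and 6 downward in Mist1KO. Leaving out Mist1KO saline replicate 2 or any Mist1KO caerulein array left 7 upward.

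**Figure D1:**
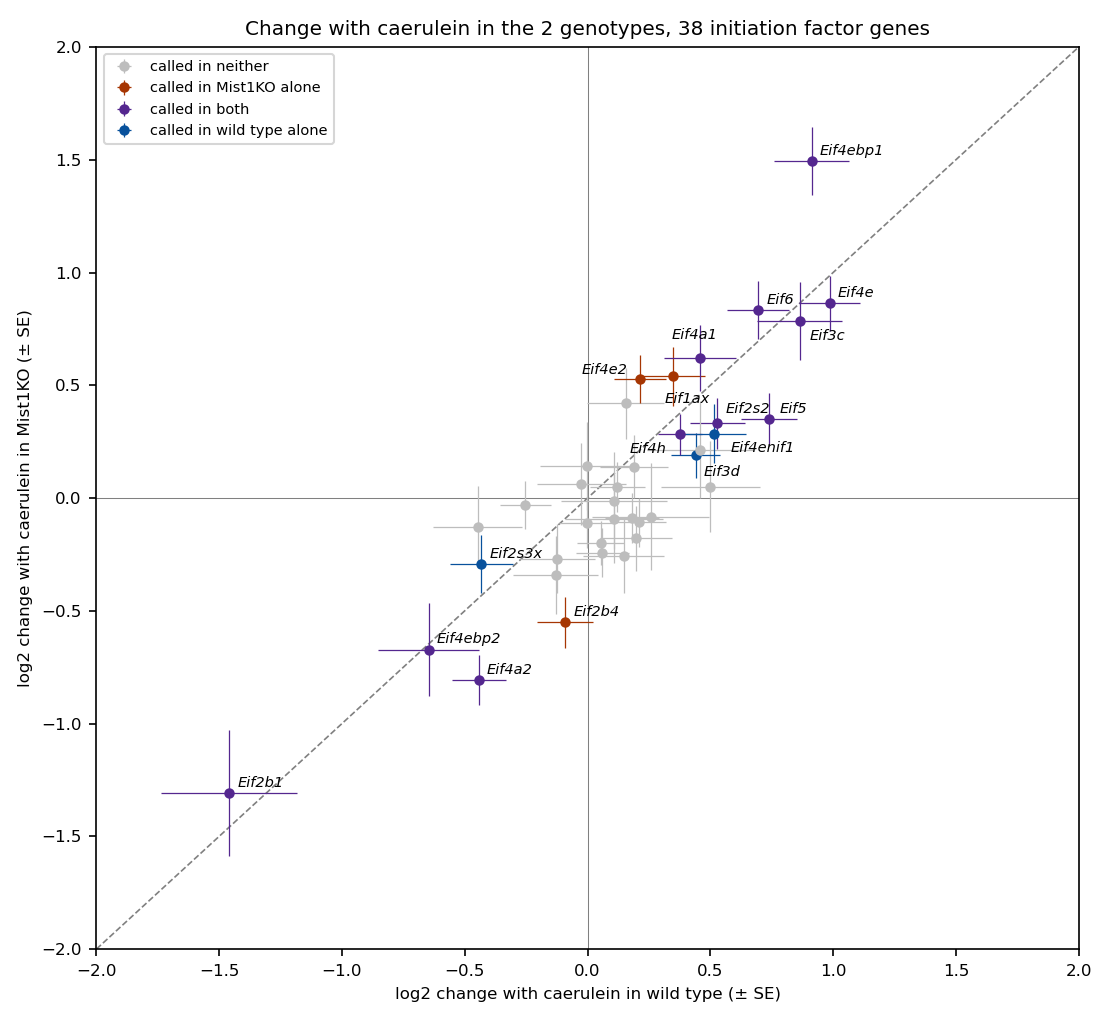
Change with caerulein in wild type (x axis) and in Mist1KO (y axis) of the 38 initiation factor genes, as log2 differences of (signal + 18.7) with standard errors, 3 pancreata per group; the dashed line marks equal change. Eif4e lies at 0.99 and 0.86, Eif4ebp1 above the line at 0.91 and 1.49, and Eif2b1 at the lower left at -1.46 and -1.31.

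Mist1KO pancreas after saline differed from wild type in 13 of the 38 genes, 11 higher and 2 lower, where 6.14% of all genes were higher and 6.95% lower. The higher ones were Eif2s3y, Eif2b2, Eif3e, Eif4a1, Eif3h, Eif3f, Eif3k, Eif4h, Eif4b, Eif4e and Eif4a2, and the lower ones were Eif4ebp1 and Eif3m. The median difference was 0.10, beside -0.09 over all genes. Quantile normalization gave 8 higher and 3 lower. The count of higher genes was 5 without Mist1KO saline replicate 3 and 6 without Mist1KO saline replicate 1. It was 7 without Mist1KO saline replicate 2 or wild type saline replicate 1 or 2. Leaving out an array also lowers the power of the test, and no called difference changed sign when an array was left out.

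After caerulein, 12 genes differed between the genotypes, 6 higher and 6 lower in Mist1KO, where 9.03% of all genes were higher and 11.6% lower. Eif2b2, Eif2s3y, Eif3e, Eif3h, Eif4a1 and Eif4h were higher in Mist1KO under both injections, and Eif3m and Eif4ebp1 lower under both. These 2 comparisons share no array either. The genes higher under both were 54.5% of those higher after saline and 100% of those higher after caerulein, beside 45.9% and 31.2% for all genes, and for lower genes the shares were 100% (2 genes) and 33.3%, beside 51.4% and 30.7%. After caerulein Eif4e3, Eif2b4, Eif2b5 and Eif5a were lower in addition. The median difference was -0.02, beside -0.09 over all genes, and it was 0.06 with arrays centred on their medians, where the counts were 8 higher and 2 lower. The count of lower genes was 2 without wild type caerulein replicate 2 or 3 or Mist1KO caerulein replicate 1, and 3 without Mist1KO caerulein replicate 2 or 3.

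**Figure D2:**
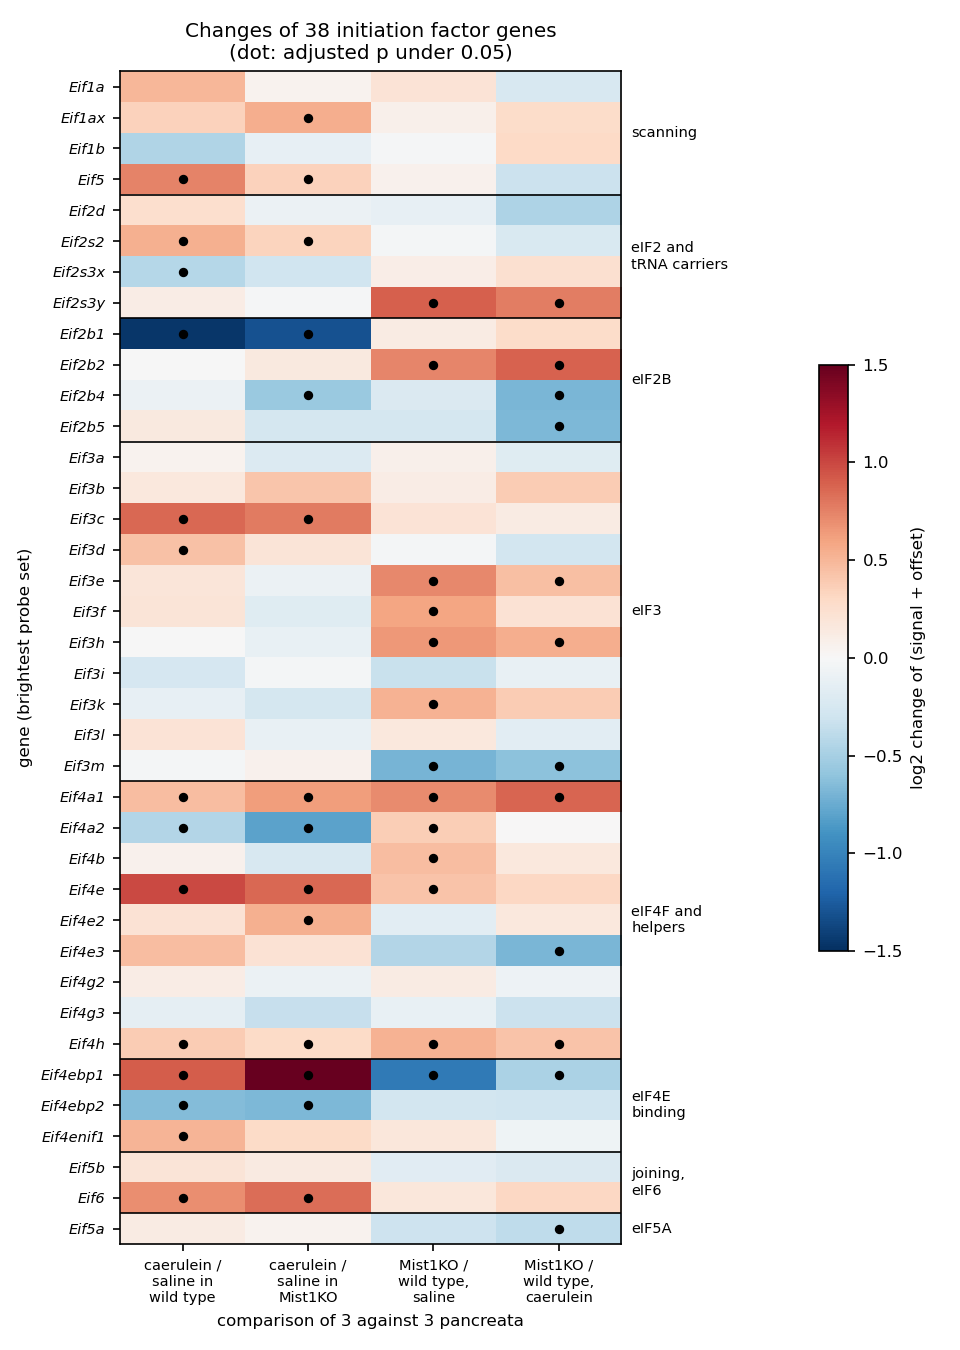
Log2 changes of (signal + 18.7) of the 38 initiation factor genes (rows, grouped by role) in 4 comparisons of 3 against 3 pancreata (columns), with red for higher, blue for lower and a dot where the adjusted p was under 0.05. Eif4a1, Eif4h and Eif4ebp1 have a dot in all 4 columns, and Eif2b1 is the deepest blue in both caerulein columns.

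The DNA before the start of a few of these genes is shown because their brightest probe sets moved most with caerulein (Eif2b1 and Eif4e), or in all 4 comparisons with a motif match (Eif4a1 and Eif4h). RefSeq starts on GRCm38.p6 were matched for 30 of the 38 genes (Eif4ebp1 not among them), and the 250 bases before the start were searched on both strands for CACGTG (the E-box bound by Myc), CAGCTG and CATATG (E-boxes of the kind bound by Mist1) and TGATGNAA (the C/EBP-ATF response element bound by ATF4). Motif matches are in capitals and the sequences run 5′ to 3′ on the gene's own strand. Eif2b1 has none of the 4 motifs at chr5:124579132-124579381 (minus strand).
Eif2b1: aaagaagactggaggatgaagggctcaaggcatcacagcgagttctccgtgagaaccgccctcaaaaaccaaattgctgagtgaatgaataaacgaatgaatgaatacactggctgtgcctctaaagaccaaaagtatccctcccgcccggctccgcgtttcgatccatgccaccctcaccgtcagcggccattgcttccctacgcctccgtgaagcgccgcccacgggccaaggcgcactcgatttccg
Eif4e, the largest rise of a brightest probe set in wild type, has CACGTG at 2 places and CAGCTG at 1 place at chr3:138527018-138527267 (plus strand, the start with these matches of its 2 starts).
Eif4e: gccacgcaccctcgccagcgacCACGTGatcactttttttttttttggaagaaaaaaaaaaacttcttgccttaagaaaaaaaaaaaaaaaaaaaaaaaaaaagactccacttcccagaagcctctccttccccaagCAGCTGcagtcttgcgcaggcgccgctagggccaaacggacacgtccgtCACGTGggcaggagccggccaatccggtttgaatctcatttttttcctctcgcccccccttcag
Eif4a1 and Eif4h were chosen after the matches were seen, and have CACGTG once each, at chr11:69672424-69672673 (minus strand) and chr5:134639410-134639659 (minus strand).
Eif4a1: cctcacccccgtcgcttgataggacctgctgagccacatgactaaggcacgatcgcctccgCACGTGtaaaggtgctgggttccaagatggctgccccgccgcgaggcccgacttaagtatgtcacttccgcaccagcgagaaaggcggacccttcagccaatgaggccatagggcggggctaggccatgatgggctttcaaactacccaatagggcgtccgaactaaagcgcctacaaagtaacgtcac
Eif4h: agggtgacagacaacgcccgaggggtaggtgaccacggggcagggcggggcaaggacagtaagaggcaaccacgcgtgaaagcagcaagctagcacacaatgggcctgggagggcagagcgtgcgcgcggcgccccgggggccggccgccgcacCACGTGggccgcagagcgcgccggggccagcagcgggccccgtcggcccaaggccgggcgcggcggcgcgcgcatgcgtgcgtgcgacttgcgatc
CACGTG lay in the window of 7 of the 30 genes (23.3%), namely Eif4e, Eif4h, Eif3k, Eif3f, Eif1b, Eif4a1 and Eif5a, against 9.75% of the 7642 tested genes with a promoter in the table. CAGCTG lay in 2 (6.67% against 14.4%), TGATGNAA in 1 (3.33% against 2.7%), that of Eif2s3x, and CATATG in none (against 2.08%). A match describes the letters only, and binding was not measured.

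The genes of scanning and start codon choice were led by Eif5, the GTPase-activating protein of eIF2, which rose with caerulein in both genotypes. Its signal was 1692.6, 1532.9 and 1595.8 in saline-treated wild type mice and 2418.7, 3055.8 and 2637.9 after caerulein. In Mist1KO it was 1672.3, 1529.9 and 1841.6 after saline and 2233.8, 2101.5 and 2097.4 after caerulein. Every caerulein array lay above every saline array of its genotype, and the 3 wild type caerulein arrays lay above all others. The change was 0.74 ± 0.11 (log2 ± SE, n = 3 per group, adjusted p = 0.000432) in wild type and 0.35 ± 0.11 (adjusted p = 0.0363) in Mist1KO, where the call was lost on leaving out any of 5 arrays in turn (adjusted p up to 0.145). The difference between the genotypes in this response was -0.39 ± 0.16 with adjusted p = 0.238.

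Of the other genes of this step, Eif1ax, the X-linked gene of eIF1A, rose with caerulein in Mist1KO by 0.54 ± 0.13 (adjusted p = 0.00819), and its change in wild type was 0.35 and not past the threshold. Its dimmer second probe set did not share this, and the mean of both was -0.09. Eif1a, a second gene of eIF1A, had a brightest probe set of the _s type, which can read several genes, with changes of 0.50 and 0.05. Its other probe set was dim after saline, at 108.5, 60.1 and 80.3 in wild type and 98.2, 92.5 and 80.4 in Mist1KO. After caerulein it read 293.3, 426.8 and 395.4 in wild type and 330.2, 370.2 and 195.9 in Mist1KO, with no overlap between injections. This was a rise of 1.95 ± 0.24 (adjusted p = 6.03e-05) and of 1.50 ± 0.24 (adjusted p = 0.000361), larger than that of any brightest probe set of the 38 genes. Eif1b, a paralogue of eIF1, did not pass the threshold in any comparison.

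For eIF2 itself, Eif2s2, the beta subunit, rose with caerulein. Its signal was 1680.8, 1546.5 and 1594.8 in saline-treated wild type mice and 2109.7, 2317.2 and 2571.5 after caerulein, and in Mist1KO it was 1748.5, 1399.8 and 1583.3 against 1963.3, 2088.6 and 1895. The groups did not overlap in either genotype, and the 3 wild type caerulein arrays were the highest of the 12. The rise was 0.53 ± 0.11 (adjusted p = 0.00494) in wild type. In Mist1KO it was 0.33 ± 0.11 (adjusted p = 0.0475) and fell short of the threshold on leaving out any of 9 arrays in turn (adjusted p up to 0.192). A second bright probe set of Eif2s2 rose by 1.02 ± 0.14 (adjusted p = 0.000169) and 0.51 ± 0.14 (adjusted p = 0.0159), and was lower in Mist1KO than in wild type after caerulein by 0.49 ± 0.14 (adjusted p = 0.0237). In Mist1KO 3 of the 5 further probe sets had changes below 0, none past the threshold, and the mean of all probe sets rose there by 0.11, with adjusted p = 0.544.

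The gamma subunit of eIF2, which binds the tRNA, has an X-linked and a Y-linked gene in the mouse. Eif2s3x fell with caerulein in wild type, from 670.9, 645.4 and 775.7 to 525.5, 546.6 and 462.1, a change of -0.43 ± 0.13 (adjusted p = 0.0302), and its change in Mist1KO was -0.29. The fall was lost on leaving out wild type saline replicate 1 or 3 or wild type caerulein replicate 3 (adjusted p up to 0.114), with centred arrays (-0.30, adjusted p = 0.175) and with the mean of its probe sets (-0.32, adjusted p = 0.123). Its brightest probe set, of the _x type, was not called between genotypes, with means after caerulein of 511.4 in wild type and 604.9 in Mist1KO. A further probe set of Eif2s3x was called higher in Mist1KO after caerulein, with means of 163.8 and 298.5. Eif2s3y was dim, at 35.9 to 45.2 on the 6 wild type arrays and 67.2 to 100.4 on the 6 Mist1KO arrays, with no overlap. It was higher in Mist1KO by 0.89 ± 0.22 after saline (adjusted p = 0.0168) and by 0.77 ± 0.22 after caerulein (adjusted p = 0.0217). The wild type signals lay under 55.4, the 40th percentile of all values, and the strain of the Mist1KO mice is not given, so a difference of strain and of Mist1 cannot be told apart here. The calls were lost without Mist1KO saline replicate 1 or 3 (adjusted p = 0.0706 and 0.0734), and without wild type caerulein replicate 3 or Mist1KO caerulein replicate 1 or 2 (adjusted p up to 0.0948). Eif2d, an unconventional carrier of initiator tRNA, passed the threshold in no comparison with its brightest probe set, whose difference between genotypes after caerulein was -0.46. A slightly dimmer probe set had a like difference that was called, lower in Mist1KO by 0.46 ± 0.14 (adjusted p = 0.0271).

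The largest fall with caerulein among the brightest probe sets was that of Eif2b1, the alpha subunit of eIF2B, which belongs to the part of the complex that senses phosphorylated eIF2. The signal in wild type went from 319.8, 435.7 and 505.5 after saline to 150.7, 132.9 and 132.2 after caerulein. In Mist1KO it went from 439.8, 481.9 and 432.1 to 152.6, 101.3 and 313.4. All caerulein arrays lay below all saline arrays, and Mist1KO caerulein replicate 3 was the highest of the caerulein arrays. The change was -1.46 ± 0.28 in wild type mice (adjusted p = 0.00223) and -1.31 ± 0.28 in Mist1KO (adjusted p = 0.00352). Leaving out any array kept both calls, with changes of -1.64 to -1.32 and -1.71 to -0.98. The other eIF2B genes tested did not fall with it in wild type: Eif2b2 changed by -0.0013, Eif2b4 by -0.09 and Eif2b5 by 0.15, none past the threshold. Eif2b3 was not among the genes tested.

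Between genotypes the eIF2B genes went opposite ways. Eif2b2, the beta subunit, read 583.4, 1077.4 and 946.4 in wild type and 1184.1, 1515.1 and 1579.8 in Mist1KO after saline, and 779.7, 996.4 and 765 against 1460, 1665.6 and 1573.4 after caerulein. Every Mist1KO array lay above every wild type array. The difference was 0.74 ± 0.19 (adjusted p = 0.0252) after saline and 0.88 ± 0.19 (adjusted p = 0.00569) after caerulein. The first was lost without wild type saline replicate 1 or Mist1KO saline replicate 2 or 3 (adjusted p up to 0.0963), and the second was kept on leaving out any array. Eif2b4, the delta subunit, read 382.7, 336.6 and 344 in wild type after caerulein and 212.1, 204.4 and 223.8 in Mist1KO, where the 3 values were the lowest of the 12 arrays. It was lower in Mist1KO by 0.68 ± 0.11 after caerulein (adjusted p = 0.000931), and had fallen with caerulein there by 0.55 ± 0.11 (adjusted p = 0.00297). The interaction was -0.46 ± 0.16 with adjusted p = 0.154, the lowest adjusted p of the 38 genes. Eif2b5, the catalytic epsilon subunit, read 313.3, 466.2 and 424.3 against 294.9, 236.9 and 201.4 and was lower in Mist1KO by 0.67 ± 0.16 (adjusted p = 0.0108, or 0.0525 without wild type caerulein replicate 2).

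**Figure D3:**
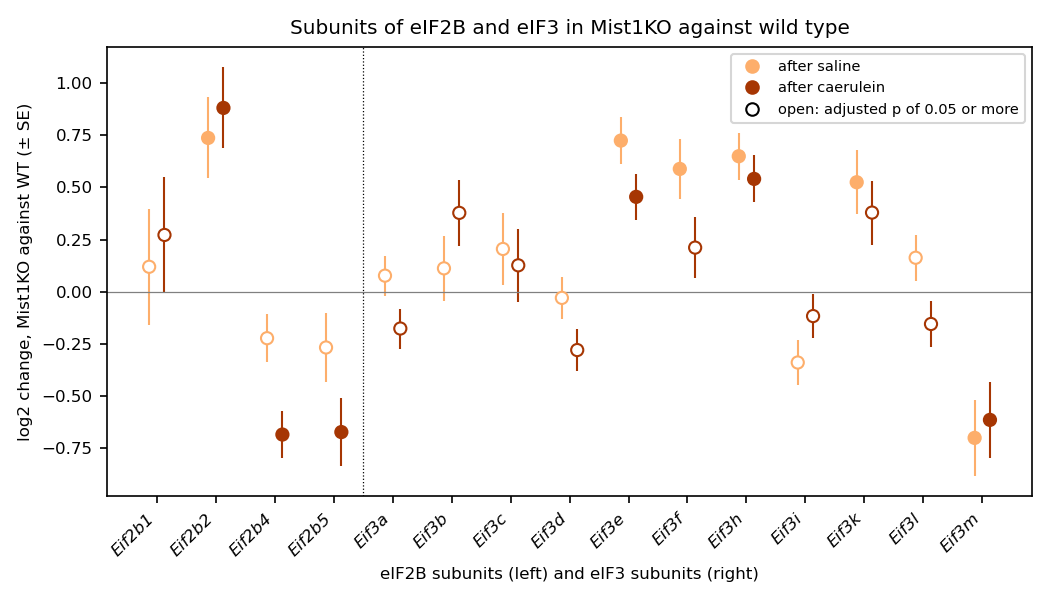
Difference between Mist1KO and wild type in log2(signal + 18.7), with standard errors, for the subunit genes of eIF2B (left of the dotted line) and eIF3 (right), after saline (light) and after caerulein (dark), 3 pancreata per group; open circles have an adjusted p of 0.05 or more. Eif2b2 lies at 0.74 and 0.88, Eif2b4 and Eif2b5 near -0.7 after caerulein, and Eif3e, Eif3h and Eif3m on their own sides of 0 under both injections.

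The scaffold eIF3 binds the small ribosomal subunit. Of its 11 subunit genes among the 38, 2 rose with caerulein in wild type and 1 in Mist1KO, and none fell. Over all genes, 8.74% and 10.2% rose. Eif3c, a core subunit, read 636.9, 1030.5 and 889 in saline-treated wild type mice and 1655.2, 1704.8 and 1283.6 after caerulein. In Mist1KO the values were 865.4, 887.7 and 1175.2 against 1797.6, 1641.2 and 1603.9. Saline and caerulein arrays did not overlap. The rise was 0.86 ± 0.17 (adjusted p = 0.00342) in wild type and 0.78 ± 0.17 (adjusted p = 0.00477) in Mist1KO, and a second probe set rose by 1.32 ± 0.14 (adjusted p = 2.2e-05) and 0.89 ± 0.14 (adjusted p = 0.000419). Eif3d, a subunit able to bind caps, rose in wild type by 0.44 ± 0.10 (adjusted p = 0.00716) from 626.9 to 691.1 on the saline arrays to 829.8 to 943.2 on the caerulein arrays. Its change in Mist1KO was 0.19, and the difference between genotypes in the response was -0.25 ± 0.14 with adjusted p = 0.406.

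Between genotypes, 4 eIF3 genes were higher in saline-treated Mist1KO mice and 1 was lower, where 6.14% of all genes were higher and 6.95% lower. Eif3e read 1294.4, 1154.3 and 1417.5 in wild type and 2300.9, 2053.9 and 2056.3 in Mist1KO after saline. After caerulein it read 1503.4, 1316 and 1571.5 against 1985.8, 1973.2 and 2064.4, so that all 6 Mist1KO arrays lay above all 6 wild type arrays. The difference was 0.72 ± 0.11 after saline (adjusted p = 0.0011) and 0.45 ± 0.11 after caerulein (adjusted p = 0.0105, or 0.0523 without wild type caerulein replicate 2). The mean of all its probe sets gave -0.01 after caerulein, so the second difference was that of the brightest probe set. Eif3h, which pairs with eIF3f, read 895.1 to 975.4 in wild type and 1330 to 1653.9 in Mist1KO after saline, and 870.7 to 1019.8 against 1298.3 to 1493.2 after caerulein. It was higher by 0.65 ± 0.11 (adjusted p = 0.00257) and 0.54 ± 0.11 (adjusted p = 0.00402), and both calls were kept on leaving out any array.

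Eif3f was higher in Mist1KO after saline by 0.59 ± 0.15 (adjusted p = 0.0188, lost on leaving out any of 4 arrays in turn) and Eif3k by 0.52 ± 0.15 (adjusted p = 0.0399, lost on leaving out any of 6), and their differences after caerulein were 0.21 and 0.38, neither past the threshold. Eif3m, another core subunit, went the other way. It read 574.9, 419.5 and 705.8 in wild type and 420.8, 283.6 and 312.5 in Mist1KO after saline, where the groups overlapped by 1 array each, and 486.4, 592.9 and 560.5 against 367.6, 326.7 and 355.9 after caerulein, where they did not. The differences were -0.70 ± 0.18 (adjusted p = 0.0235) and -0.61 ± 0.18 (adjusted p = 0.0283), and the calls were lost on leaving out any of 4 and any of 5 arrays in turn (adjusted p up to 0.0857 and 0.0935). Eif3a, Eif3b, Eif3i and Eif3l passed the threshold in no comparison. Nearest to it was Eif3i, at -0.34 ± 0.11 between genotypes after saline with adjusted p = 0.0507.

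Within eIF4F and its helpers, Eif4e, the cap-binding protein, read 310.1, 409.3 and 355.4 in saline-treated wild type mice and 697.6, 698.5 and 776.6 after caerulein. In Mist1KO it read 429.6, 519.3 and 512.6 after saline and 905.4, 877.7 and 912.4 after caerulein. The 4 groups formed 4 steps without overlap, from wild type saline up to Mist1KO caerulein. The rise with caerulein was 0.99 ± 0.12 (adjusted p = 8.14e-05) in wild type and 0.86 ± 0.12 (adjusted p = 0.000166) in Mist1KO, kept on leaving out any array. After saline Eif4e was higher in Mist1KO by 0.43 ± 0.12 (adjusted p = 0.0372, lost on leaving out any of 5 arrays in turn), a difference that the mean of its probe sets turned to -0.0184 (adjusted p = 0.941). The other 2 probe sets of Eif4e, with group means of 103.6 to 125.7 and of 63.97 to 106.9, did not move with it. Their changes in wild type were -0.04 and -0.20. The mean of all 3 probe sets gave 0.25 and 0.23 for caerulein in wild type and Mist1KO, with adjusted p = 0.213 and 0.233. The rise of Eif4e is therefore that of its brightest probe set.

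The helicase genes Eif4a1 and Eif4a2 encode near-identical proteins and parted under caerulein. Eif4a1 read 902.4, 924.2 and 788.1 in saline-treated wild type mice and 1454.5, 1001.9 and 1192.1 after caerulein, and in Mist1KO 1618.3, 1301.4 and 1400.5 against 2467.7, 2282.7 and 1937.5. The 3 Mist1KO caerulein arrays were the highest of the 12. Caerulein raised it by 0.62 ± 0.15 in Mist1KO (adjusted p = 0.00659) and by 0.46 ± 0.15 in wild type mice (adjusted p = 0.0412, lost on leaving out any of 7 arrays in turn). In wild type the mean of its probe sets gave 0.28 (adjusted p = 0.138) and quantile normalization 0.27 (adjusted p = 0.264). It was higher in Mist1KO than in wild type by 0.71 ± 0.15 after saline (adjusted p = 0.00736) and by 0.87 ± 0.15 after caerulein (adjusted p = 0.000929), and leaving out any array kept both calls.

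Eif4a2 read 1989.9, 1830.6 and 2030.9 in saline-treated wild type mice and 1446.6, 1574.4 and 1277.4 after caerulein, and in Mist1KO 2698.7, 2358.6 and 2542.7 against 1344.1, 1435 and 1541. After caerulein the genotypes overlapped in full, whereas after saline every Mist1KO array was above every wild type array. The fall was -0.44 ± 0.11 in wild type mice (adjusted p = 0.0122, or 0.0557 without wild type caerulein replicate 3) and -0.81 ± 0.11 in Mist1KO (adjusted p = 0.000121). With arrays centred on their medians the wild type change was -0.31 (adjusted p = 0.0939). The saline difference between genotypes was 0.37 ± 0.11 (adjusted p = 0.0412, lost on leaving out any of 8 arrays in turn). The interaction was -0.36 ± 0.16 with adjusted p = 0.255.

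Eif4h and Eif4b encode RNA-binding proteins that stimulate the helicase. Eif4h read 903.1, 860.1 and 914.3 in wild type after saline, 1137.1, 1180.2 and 1174.8 in wild type after caerulein, and in Mist1KO 1312.9, 1233.6 and 1325.9 after saline against 1567.2, 1559.7 and 1595.6 after caerulein. No group overlapped another. Caerulein raised it by 0.38 ± 0.09 (adjusted p = 0.0104) in wild type and by 0.28 ± 0.09 (adjusted p = 0.0356) in Mist1KO, and with quantile normalization these were 0.20 and 0.16 and no longer past the threshold. The Mist1KO call was also lost on leaving out any of 6 arrays in turn (adjusted p up to 0.122). Between genotypes it was higher in Mist1KO by 0.52 ± 0.09 (adjusted p = 0.00258) and 0.43 ± 0.09 (adjusted p = 0.0044), and leaving out any array kept both calls. Eif4b was higher in Mist1KO after saline by 0.46 ± 0.11 (adjusted p = 0.0154, or 0.0619 without wild type saline replicate 2 and 0.0683 without Mist1KO saline replicate 1), and the mean of its probe sets gave 0.31, with adjusted p = 0.0551.

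The remaining genes of this group are relatives of eIF4E and eIF4G. Eif4e2, whose protein binds caps without recruiting eIF4G, rose with caerulein in Mist1KO, from 451.9, 452.8 and 414.1 to 637.6, 687.9 and 604, by 0.53 ± 0.11 (adjusted p = 0.00237), and its change in wild type was 0.21. The mean of its 4 probe sets gave 0.26 in Mist1KO, with adjusted p = 0.139. Eif4e3, another cap-binding relative, was dim, at 109.2, 106.9 and 117.8 in wild type after caerulein and 61.9, 71.5 and 53.3 in Mist1KO. It was lower in Mist1KO by 0.69 ± 0.22 (adjusted p = 0.0372), a call lost on leaving out any of 6 arrays in turn (adjusted p up to 0.106) and with the mean of its probe sets (-0.47, adjusted p = 0.232). Eif4g2, which drives cap-independent initiation, and Eif4g3, a paralogue of the eIF4G scaffold, passed the threshold in no comparison with their brightest probe sets.

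**Figure D4:**
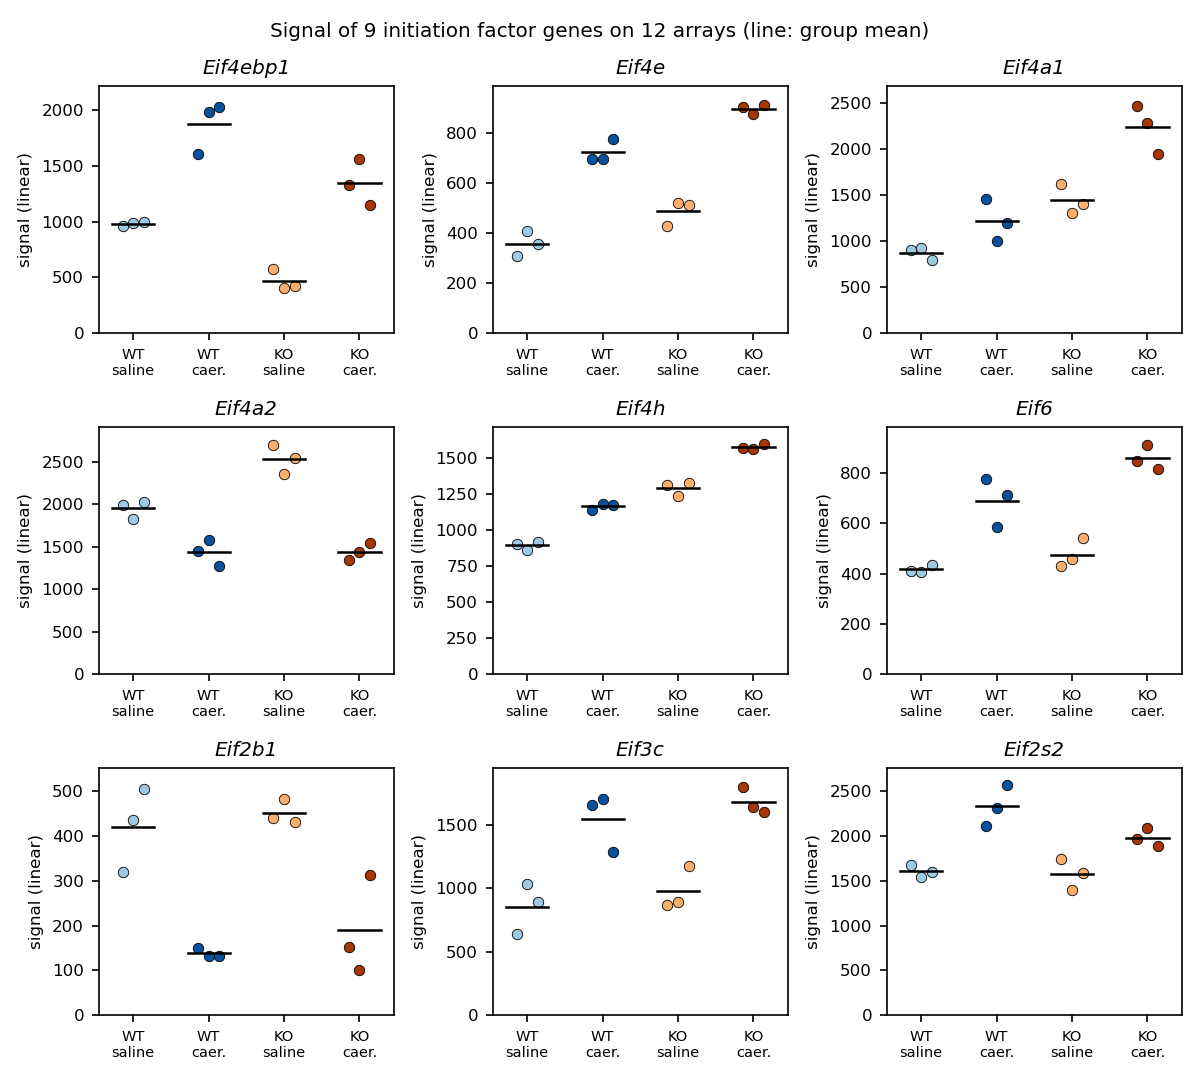
Signal on each of the 12 arrays (points, linear scale from 0) and group means (lines) of 9 initiation factor genes in wild type (WT) and Mist1KO (KO) pancreas after saline or caerulein (caer.), 3 pancreata per group. Eif4e and Eif4h step up without overlap from wild type saline to Mist1KO caerulein, Eif4ebp1 is lowest in Mist1KO after saline, and Eif2b1 falls from 319.8 to 505.5 after saline to 101.3 to 313.4 after caerulein.

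The genes of the eIF4E-binding repressors moved in opposite directions. Eif4ebp1 encodes 4E-BP1, which holds eIF4E off eIF4G and is also a target of ATF4. Its signal was 962.5, 990.1 and 995 in saline-treated wild type mice and 1610.5, 1983.5 and 2030.5 after caerulein. In Mist1KO it was 578.3, 403.9 and 420.3 after saline and 1328.1, 1558.5 and 1145.1 after caerulein. Each group stood clear of the other 3, with Mist1KO after saline lowest and wild type after caerulein highest. The rise with caerulein was 0.91 ± 0.15 (adjusted p = 0.000806) in wild type and 1.49 ± 0.15 (adjusted p = 8.95e-06) in Mist1KO, the largest rise among the brightest probe sets of the 38 genes. The interaction was 0.58 ± 0.21 with unadjusted p = 0.017 and adjusted p = 0.179 in limma's test.

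Eif4ebp1 was lower in Mist1KO by 1.06 ± 0.15 after saline (adjusted p = 0.000668) and by 0.48 ± 0.15 after caerulein (adjusted p = 0.0388). The first call was kept in all 21 other settings. The second was lost on leaving out wild type caerulein replicate 2 or 3 or Mist1KO caerulein replicate 1 or 3 (adjusted p up to 0.135) and with centred arrays (-0.39, adjusted p = 0.126). A second probe set of Eif4ebp1 gave -1.19 ± 0.13 (adjusted p = 7.05e-05) and -0.70 ± 0.13 (adjusted p = 0.00162) for the same comparisons, and rises with caerulein of 1.14 ± 0.13 in wild type mice (adjusted p = 2.97e-05) and 1.63 ± 0.13 in Mist1KO (adjusted p = 8.88e-07). On this probe set the difference after caerulein was 1635.3, 1585.1 and 1702 against 1000.7, 988.6 and 1028, with no overlap.

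Eif4ebp2, the gene of 4E-BP2, fell with caerulein. It read 525.9, 319.7 and 321.6 in saline-treated wild type mice and 289.3, 175.5 and 254.3 after caerulein, and 353.4, 308.2 and 273.5 against 179.1, 204.1 and 180.6 in Mist1KO. The groups did not overlap, although wild type saline replicate 1 stood far above its fellows. The change was -0.65 ± 0.21 (adjusted p = 0.041) in wild type and -0.67 ± 0.21 (adjusted p = 0.0282) in Mist1KO, and leaving out any of 6 and any of 5 arrays in turn lost these calls (adjusted p up to 0.162 and 0.104). A second probe set fell by 0.53 ± 0.17 (adjusted p = 0.0431) and 0.80 ± 0.17 (adjusted p = 0.0036). The other 3 did not pass the threshold, with changes of -0.23 to 0.31 in wild type, and the mean of all probe sets gave -0.26 there, with adjusted p = 0.133. Eif4enif1, whose protein carries eIF4E into the nucleus, rose with caerulein in wild type from 201.4, 234.7 and 281 to 333.3, 370.8 and 336.1, by 0.51 ± 0.13 (adjusted p = 0.0142). This call was lost without wild type saline replicate 1 (adjusted p = 0.0606) or wild type caerulein replicate 2 (adjusted p = 0.0537). The change in Mist1KO was 0.29.

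Eif6, which keeps the large ribosomal subunit from joining too early and serves in its assembly, rose with caerulein in both genotypes. It read 410.8, 407 and 433.8 in saline-treated wild type mice and 776.9, 584.7 and 712.4 after caerulein, and 429.4, 457.1 and 540.2 against 848.7, 912.4 and 817.6 in Mist1KO. No saline array reached a caerulein array. The rise was 0.69 ± 0.13 (adjusted p = 0.00165) in wild type and 0.83 ± 0.13 (adjusted p = 0.000291) in Mist1KO, kept in all 21 other settings. Eif5b, the factor of subunit joining, passed the threshold in no comparison, with changes of 0.19 and 0.14 with caerulein. Eif5a, the hypusine-bearing protein now known to act mainly in elongation, read 4720.9, 4641.1 and 5286.2 in wild type after caerulein and 3619.6, 3747.4 and 3807.3 in Mist1KO. It was lower in Mist1KO by 0.39 ± 0.11 (adjusted p = 0.0263), which leaving out wild type caerulein replicate 3 or Mist1KO caerulein replicate 1 or 2 lost (adjusted p up to 0.0886). Its other probe set had a difference of 0.0018, and the mean of both was -0.19, with adjusted p = 0.154.

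Whether the response to caerulein differed between the genotypes was tested by the interaction. None of the 38 genes passed with limma's adjusted p, while 3.34% of all genes did, and 4 of the 38 had an unadjusted p under 0.05 (Eif2b4, Eif4ebp1, Eif5 and Eif4a2). The median interaction was -0.12, beside 0.0023 over all genes, and 26 of the 38 genes lay below 0. The 10 genes that passed in no comparison were Eif1a, Eif1b, Eif2d, Eif3a, Eif3b, Eif3i, Eif3l, Eif4g2, Eif4g3 and Eif5b, with changes with caerulein between -0.45 and 0.50 in wild type and between -0.34 and 0.42 in Mist1KO.

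Probe sets of a gene did not always share a call, and those of the _s and _x types can read related sequences. Of the 14 genes called with caerulein in wild type, 9 had further probe sets tested, and 5 of the 9 had a further one called the same way. In Mist1KO this held for 7 of 10, between genotypes after saline for 2 of 7 and after caerulein for 4 of 7. How often further probe sets share a call over all genes was not counted. None of these called genes had a further probe set called in the opposite direction. Among genes whose brightest probe set was not called, further probe sets of Eif2d and Eif4g2 rose with caerulein in Mist1KO, by 1.14 ± 0.30 (adjusted p = 0.0126) and 0.49 ± 0.12 (adjusted p = 0.0078), against the sign of the brightest. That of Eif2d, of the _x type, was dim, at 16.3 to 32.7 after saline and 59.3 to 87.2 after caerulein. Between genotypes, further probe sets were called with the sign of the uncalled brightest for Eif3c after saline. After caerulein this held for Eif2d, Eif2s2, Eif2s3x and Eif5. Eif5 was the fullest case, with all 4 probe sets raised by caerulein in both genotypes. Its probe set of the _a type read 644.7, 744.7 and 759.4 in saline-treated wild type mice and 2136.7, 1991.5 and 2001.4 after caerulein, and 818.7, 706.5 and 687.7 against 1330.9, 1321.9 and 1115.2 in Mist1KO. The saline groups overlapped, and after caerulein all wild type arrays lay above all Mist1KO arrays. It rose by 1.49 ± 0.12 in wild type mice (adjusted p = 1.31e-06) and by 0.75 ± 0.12 in Mist1KO (adjusted p = 0.000293).

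**Figure D5:**
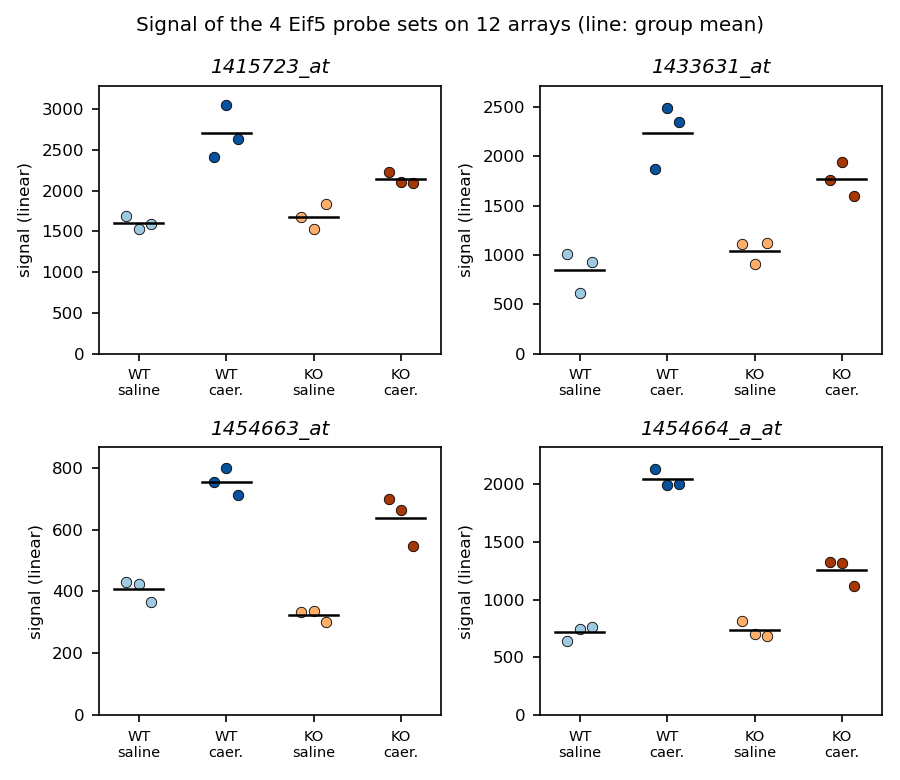
Signal of the 4 probe sets of Eif5 on each of the 12 arrays (points, linear scale from 0) with group means (lines), in wild type (WT) and Mist1KO (KO) pancreas after saline or caerulein (caer.), 3 pancreata per group. All 4 are higher after caerulein in both genotypes, and the probe set of the _a type rises to between 1991.5 and 2136.7 in wild type and between 1115.2 and 1330.9 in Mist1KO.

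Among genes that act on eIF2, 11 kinase and phosphatase genes were tested. Caerulein raised 3 of them in wild type and none in Mist1KO, and lowered 1 in each, where 8.74% and 10.2% of all genes rose and 9.96% and 14% fell. Ppp1r15a, the inducible subunit that brings phosphatase to eIF2, rose by 1.92 ± 0.27 in wild type mice (adjusted p = 0.000246), Ppp1r15b, its constitutive counterpart, by 1.14 ± 0.17 (adjusted p = 0.000389) and Eif2ak3, the eIF2 kinase PERK of the endoplasmic reticulum, by 0.72 ± 0.21 (adjusted p = 0.0253). The response of Ppp1r15a differed between genotypes by -2.28 ± 0.39 (adjusted p = 0.00638). Of 18 genes of ATF4 and its targets, which are translated or induced when eIF2 is phosphorylated, 17 rose with caerulein in wild type and 11 in Mist1KO. After caerulein 17 were lower in Mist1KO than in wild type, where 11.6% of all genes were lower. After saline 6 of the 18 were already lower and 1 was higher, where 6.95% of all genes were lower and 6.14% higher. The interaction was past the threshold for 5 of the 18, beside 3.34% of all genes. The list was chosen with earlier results of these data known. Its median change with caerulein was 1.47 in wild type and 0.996 in Mist1KO. Atf4 itself rose by 2.24 ± 0.15 (adjusted p = 3.87e-07) and by 1.66 ± 0.15 (adjusted p = 2.62e-06).

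Of 16 genes of the mTOR complex 1 pathway and the eIF4E kinases, caerulein raised 3 and lowered 5 in wild type, and raised 2 and lowered 6 in Mist1KO, to be read beside the same shares of all genes. Sesn2 and Ddit4, inhibitors of mTOR complex 1, rose by 3.44 ± 0.37 (adjusted p = 2.09e-05) and 2.96 ± 0.49 (adjusted p = 0.000756) in wild type, and the Sesn2 response differed between genotypes by -3.07 ± 0.52 (adjusted p = 0.00622). Mknk1, a kinase that phosphorylates eIF4E, fell by 1.12 ± 0.25 (adjusted p = 0.00618) in wild type and by 1.97 ± 0.25 (adjusted p = 6.04e-05) in Mist1KO. Of 15 poly(A)-binding proteins and other regulators of initiation, 1 rose and 1 fell in wild type, and 2 rose and 4 fell in Mist1KO. The shares of all genes were 8.74% up and 9.96% down in wild type, and 10.2% and 14% in Mist1KO. Pdcd4, which blocks the helicase eIF4A, fell in Mist1KO by 1.94 ± 0.25 (adjusted p = 7.04e-05), and Ptbp1, an RNA-binding protein, rose in both genotypes, by 1.50 ± 0.15 (adjusted p = 1.32e-05) and 1.05 ± 0.15 (adjusted p = 0.000179).

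For the later steps of translation, of 14 elongation factor genes, 1 fell in wild type and 2 in Mist1KO, and none rose. Of 8 termination and recycling genes, 1 rose in wild type and 3 in Mist1KO, and none fell. Over all genes 8.74% rose and 9.96% fell in wild type, and 10.2% and 14% in Mist1KO, so that with lists of this size a single call is near the share of all genes. Etf1, the release factor that reads stop codons, rose by 1.002 ± 0.14 in wild type mice (adjusted p = 0.000163) and by 0.90 ± 0.14 in Mist1KO (adjusted p = 0.000257). Whether these lists differ from the initiation factors was not tested.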

How the data were processed

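The authors deposited 1 table of linear signal intensities, with a value for each probe set on each array. The software behind them, the target of the scaling and any detection calls were not stated in the labels or files used here. Samples were grouped by title, none was left out, and no 2 arrays held identical values. Before log2, 18.7 (the 20th percentile of the table) was added to each value, so folds of dim genes are understated. Control probe sets (64) and those with a mean log2 at or below the 30th percentile were left out, and 682 probe sets with several symbols named no gene. The 12 arrays entered 1 limma model (version 3.58.1, R 4.3.3) with 4 group means, and eBayes was run with trend = TRUE. It had 8 residual degrees of freedom and a prior worth 5.75. The 4 comparisons and the interaction were tested from both sides, with Benjamini-Hochberg adjustment over all probe sets. The script was tested on simulated data. Python 3.11.15 with matplotlib 3.10.9 drew the figures. The number of arrays limits the precision.

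The genes named are those past 0.05 in any comparison, with array values for the largest changes and for each role, and up to 4 per list of other translation genes. The members and lists were chosen with earlier results of these data known. Platform symbols can be old. Alternatives were other offsets, scalings, filters, variance models, sets of arrays and summaries of probe sets, and a replicate block. Deviations of arrays with the same replicate number correlated between -0.10 and 0.05 over 18 pairs, none over 0.1, so the numbers were not taken to pair the arrays.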

Additional observations from a re-analysis of the deposited data

Results flagged for a closer look

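The response of Eif5 to caerulein differed between the genotypes on its probe set of the _a type. The rise in Mist1KO minus that in wild type was -0.74 ± 0.16 on the log2 scale, with adjusted p = 0.0246 in limma's interaction test. This was the single such case among the 88 tested probe sets of initiation factor genes. Of all 9481 genes tested, each by its brightest probe set, 3.34% passed this test. All 3 wild type arrays after caerulein lay above all 3 Mist1KO arrays, and the saline groups overlapped. The call was lost without wild type saline replicate 1 (-0.67, adjusted p = 0.0618) and without Mist1KO saline replicate 1 (-0.66, adjusted p = 0.0698), and over the other arrays left out in turn the adjusted p was at most 0.0493. The other 3 Eif5 probe sets gave -0.64 ± 0.25 (adjusted p = 0.197), -0.39 ± 0.16 (adjusted p = 0.238) and 0.07 ± 0.17 (adjusted p = 0.902). The interaction was thus past the threshold on 1 of the 4 probe sets.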

How the results depend on the processing

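Of 53 calls of an initiation factor gene in a comparison, 24 were kept in all 21 other settings and 29 were lost in at least 1. Why a call was lost was not tested. Offsets of 1 and of 55.4 (the 40th percentile) lost none, no filter 6, the replicate block 7, quantile normalization 8, centred arrays 9, no trend 13, the arrays of the 2 groups 14 and the mean of probe sets 13. The mean of a gene's probe sets turned 3 of them around, to -0.0184 for Eif4e and -0.0106 for Eif3e between genotypes after saline and after caerulein, and to -0.0935 for Eif1ax with caerulein in Mist1KO. Without the intensity trend, or with only the arrays of the 2 groups compared, 7 genes in place of 11 were higher in Mist1KO after saline, and with centred arrays 1 in place of 2 was lower. After caerulein 2 in place of 6 were lower with centred arrays and 3 without the trend. With caerulein in wild type 1 in place of 4 fell with centred arrays, and 2 without the trend, with the arrays of the 2 groups or with the mean of probe sets. Leaving out each array in turn gave 5 to 11 higher and 1 to 3 lower in Mist1KO after saline, 5 to 7 higher and 2 to 7 lower after caerulein, 8 to 10 up and 2 to 4 down with caerulein in wild type, and 7 to 11 up and 3 to 4 down in Mist1KO. The interaction had 0 in each, by limma. With the replicate number as a block, 9 were higher and 2 lower in Mist1KO after saline, 6 and 5 after caerulein, 10 rose and 3 fell in wild type, and 7 rose and 4 fell in Mist1KO. The block changed no count by over 1.5 times, and the numbers showed no sign of pairing arrays. Without detection calls, signal over background could not be read, so the dim Eif2s3y and Eif4e3 rest on small signals.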
